A study of Mus musculus with 5 samples.

Results

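Id proteins and their E protein partners are described here across 5 samples of mouse dendritic cell progenitors. The members were the probe sets whose platform annotation gives the symbol Id1, Id2, Id3, Id4, Tcf3, Tcf4 or Tcf12, and each of the 7 genes had exactly 1 probe set among the 12422 probe sets that are not array controls. All 7 gene IDs carried the same symbol in the mouse RefSeq gene table, so Tcf3 is the gene of E2A and Tcf4 the gene of E2-2, and neither is a TCF/LEF gene that once shared the name. Every sample held bone marrow cells that the labels call dendritic cell progenitors positive for FLT3 and CD11b. Total RNA of each sample was measured on 1 array. The labels give 1 group of 5 samples and no genotype, strain, age, treatment, culture or pooling, so no conditions could be compared. Nothing says whether the samples came from separate animals or cultures, so the spread between them may be technical. The p-values below only set a probe set's spread between these samples against that of other probe sets of like mean signal.

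E proteins are basic helix-loop-helix transcription factors that bind E-box DNA as dimers, among themselves or with tissue-restricted partners. Id proteins carry the helix-loop-helix but lack the basic region, so a dimer of an Id and an E protein does not bind DNA. In dendritic cells, Id2 is known for its part in conventional subsets and Tcf4 for the identity of plasmacytoid cells. The publication to which the labels refer for RNA work dealt with Id2 in dendritic cell development.

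Upstream sequences are shown for 4 members whose data the results turn on: Id2, whose signal was high on every array, Id3, which was near or under the array median, Tcf3, which was low in 1 sample, and Tcf12, whose signal varied with that of Id2. They are the 250 bases before an annotated gene start, taken from RefSeq (GRCm38.p6), written 5′ to 3′ on the strand of the gene. Capitals mark the E-box CANNTG, which reads the same on both strands, and CCAAT on either strand, which appears as ATTGG when reversed. No capital stretches overlap. Windows of 5 of the 7 genes were searched, with 3 starts for Tcf12, of which the most upstream is shown. No window was available for Id1, and Tcf4 was left out of the search.
Id2, chr12:25096093-25096342, minus strand: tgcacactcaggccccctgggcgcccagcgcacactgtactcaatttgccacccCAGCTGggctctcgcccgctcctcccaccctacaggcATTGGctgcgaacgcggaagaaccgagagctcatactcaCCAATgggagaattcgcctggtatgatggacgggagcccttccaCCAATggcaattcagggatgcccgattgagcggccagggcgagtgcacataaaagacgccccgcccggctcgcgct
Id3, chr4:136143572-136143821, plus strand: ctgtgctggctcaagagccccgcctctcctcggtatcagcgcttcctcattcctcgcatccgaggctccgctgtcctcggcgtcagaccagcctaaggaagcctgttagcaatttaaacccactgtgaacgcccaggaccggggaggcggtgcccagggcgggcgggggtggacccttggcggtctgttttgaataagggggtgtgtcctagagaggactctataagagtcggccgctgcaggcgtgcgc
Tcf3, chr10:80433636-80433885, minus strand: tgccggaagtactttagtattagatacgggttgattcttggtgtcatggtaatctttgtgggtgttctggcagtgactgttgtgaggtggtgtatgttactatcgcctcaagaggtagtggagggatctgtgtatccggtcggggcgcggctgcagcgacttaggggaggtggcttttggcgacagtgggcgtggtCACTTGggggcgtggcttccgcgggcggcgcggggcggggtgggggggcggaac
Tcf12, chr9:72111820-72112069, minus strand: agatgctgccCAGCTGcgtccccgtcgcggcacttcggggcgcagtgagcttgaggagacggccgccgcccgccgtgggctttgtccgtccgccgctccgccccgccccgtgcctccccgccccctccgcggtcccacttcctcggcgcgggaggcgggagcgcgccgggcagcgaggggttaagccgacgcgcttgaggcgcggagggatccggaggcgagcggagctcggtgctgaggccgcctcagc

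The Id2 window holds 1 E-box, CAGCTG, whose first base lies at -196 from the gene start, and 3 CCAAT matches at -159, -120 and -76. At least 1 CANNTG was found in 66.2% of all 32851 such windows and at least 3 CCAAT matches in 2.79%. The Tcf3 window holds 1 E-box at -54 and the Tcf12 window shown 1 at -240, also CAGCTG, a word present in 13.0% of windows. The windows of the other Tcf12 starts lack that word. The nearer to the one shown has CAAGTG at -149, and the most downstream has no E-box but CCAAT matches at -238 and -118. The Id3 window holds neither motif. These matches describe letters only.

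Signals below are scaled array intensities. A single factor per array brought all 5 arrays to a median of 103.4, and a gene counted as above the limit where it exceeded its array's median. No detection calls came with the values, so this is a rank within an array and not a call of presence. Probe sets differ in how strongly they bind, a limit that such ranks, percentiles and counts carry too. The levels of the members were therefore not ordered against each other. In these bulk samples, fewer cells that express a gene and less RNA per cell cannot be told apart.

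Sample 1 was deposited on another scale than the others, with a median of 392 against 66.5 to 81.2. For the actin control, the ratio of 3′ to 5′ signal, a sign of RNA or labelling quality, was 1.08, 3.0029, 4.15, 5.20 and 2.55 in samples 1 to 5, for Gapdh it was 0.896, 1.06, 4.52, 3.42 and 2.01, and for the transferrin receptor 3.14, 3.77, 16.7, 8.63 and 5.16. Both genes of the sort, Flt3 and Itgam, were above the limit on all 5 arrays. Of the markers fixed for other cells, 5 of 5 neutrophil granule genes were above it on all 5 arrays, against 2 of 7 stromal and endothelial, 1 of 5 mature dendritic cell and 1 of 6 T and NK cell genes, and 0 each of 4 plasmacytoid, 6 B cell and 4 erythroid genes. Of all 8251 named genes, 44.5% were above the limit on all 5 arrays. No marker was at 0 on any array.

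Of the 7 members, 3 were above the limit on all 5 arrays: Id1, Id2 and Tcf12. Among all 8251 named genes the share was 44.5%. Tcf3 and Tcf4 were above it on 4 arrays, Id3 on 1 and Id4 on 0. Sample 5 was the array on which both Tcf3 and Tcf4 lay under the median. Without sample 5, 5 of the 7 members were above the limit on every remaining array, against 46.2% of named genes. With 3 arrays sufficing there were likewise 5, against 57.3%. A limit at the 40th percentile of each array gave 4 members, against 51.1%, and one at the 75th gave 2, Id2 and Tcf12, against 21.7%.

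**Figure D1:**
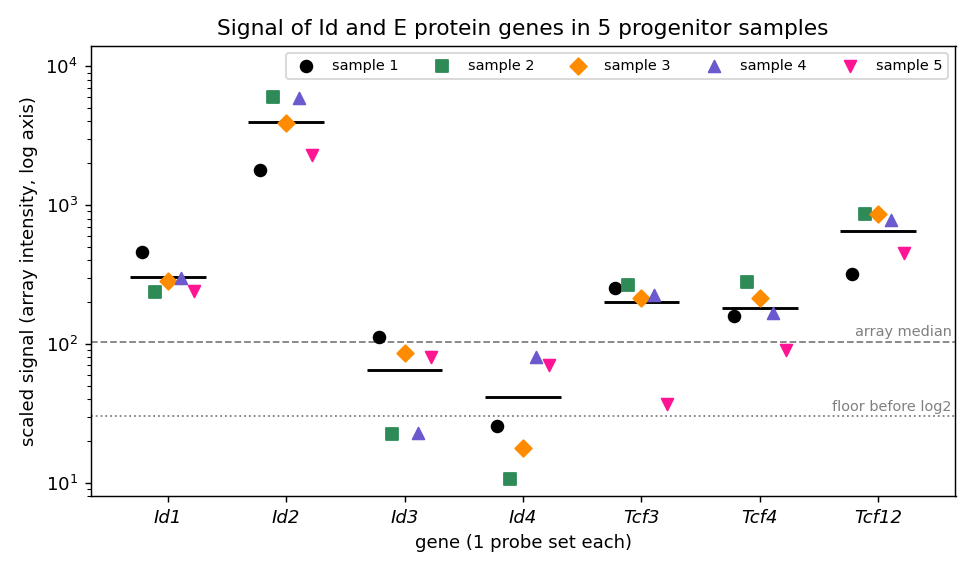
Scaled signal of each Id and E protein gene (log axis, array intensity) in samples 1 to 5, with 1 point per sample, a horizontal bar at the mean of 5 samples, a dashed line at the common array median of 103.4 and a dotted line at the floor of 30.0. Id2 lies far above the median in every sample, and Tcf3 lies near the floor in sample 5 alone.

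Id2, the inhibitor tied to conventional dendritic cells, had signals of 1778, 6015, 3882, 5920 and 2289 in samples 1 to 5, with a mean of 3977 ± 1976 (SD, n = 5). Samples 2 and 4 were high and samples 1 and 5 low, with the highest sample at 3.38 times the lowest. On each array Id2 ranked between the 96.3rd and the 98.9th percentile of probe sets. Its SD on the log2 scale, with a floor of 30.0 set under low values, was 0.80. The SD was larger than that of 85.3% of the 5814 probe sets whose mean exceeded the common median. The 187 probe sets within 0.5 log2 units of the mean level of Id2 moved the same way in part, their median deviation from their own means being -0.19, 0.13, 0.10, 0.30 and -0.22 in samples 1 to 5. With that median subtracted, a step chosen after the data were seen, the SD of Id2 was 0.60. The summed signal of the neutrophil granule markers, most of it from S100a8 and Ngp, was 37035, 108622, 78829, 159667 and 106264 in samples 1 to 5. It was lowest in sample 1, like Id2, but nearly equal in samples 2 and 5, where Id2 was high and low. Other markers of the list ran differently, Elane having 10647 in sample 1 and 2027 in sample 2, and Mpo 7306 and 3491. The 3′ over 5′ ratio was lowest in samples 1 and 5 for actin, and in samples 1 and 2 for both Gapdh and the transferrin receptor. Their part in the spread of Id2 was not tested.

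Id1, an inhibitor induced by BMP signals in many cells, had signals of 459, 238, 285, 298 and 240 in samples 1 to 5, a mean of 304 ± 90.6 (SD, n = 5). Sample 1 was the high one, where Id2 was lowest, and the other samples lay close together. Its log2 SD was 0.39, larger than that of 34.0% of probe sets past the same filter. Its rank on the arrays ran from the 68.5th to the 82.2nd percentile.

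Id3, an inhibitor prominent in lymphocytes, had signals of 111, 22.6, 86.3, 23.0 and 80.9 in samples 1 to 5. It exceeded the median in sample 1 alone and lay under the floor of 30.0 in samples 2 and 4, the samples in which Id2 was highest. Id4, known mainly from neural and epithelial tissue, had signals of 25.5, 10.7, 17.8, 81.0 and 70.9, with 3 samples under the floor. Values under the floor have no order, so neither gene's differences between those samples were read. Both failed the filter on mean signal and were not tested for variance with it.

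Among the E proteins, Tcf12, which encodes HEB, had signals of 318, 858, 858, 785 and 448 in samples 1 to 5, a mean of 653 ± 253 (SD, n = 5). Samples 1 and 5 were low and the other 3 lay close together. Its log2 SD was 0.65, and its rank ran from the 75.1st to the 90.6th percentile. With the median of probe sets of like level subtracted, the SD was 0.59. The suffix of its probe set name marks probes that can match several transcripts.

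Tcf4, which encodes E2-2, the E protein of plasmacytoid dendritic cells, had signals of 158, 278, 216, 166 and 90.2 in samples 1 to 5, a mean of 182 ± 69.9 (SD, n = 5). It was highest in sample 2 and lowest, under the median, in sample 5. Of the 4 plasmacytoid markers measured, whose summed signal ran from 278 in sample 4 to 1523 in sample 2, Cox6a2 was the one that stood out in sample 2, with 1274 against 16.8 to 155 elsewhere. None of the 4 was above the limit on every array. Their part in the level of Tcf4 was not tested.

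Tcf3, which encodes E12 and E47 by splicing, had signals of 255, 267, 214 and 224 in samples 1 to 4 and 36.8 in sample 5, a mean of 199 ± 93.5 (SD, n = 5). The first 4 samples lay within a narrow range, and sample 5 stood apart below it. The gap between sample 5 and the next sample made up 0.887 of the whole log2 range, above the critical ratio of 0.71 in Dixon's outlier test at 95%. Such an outlying sample occurred in 351 of 5814 probe sets past the filter (6.04%), and a low sample 5 in 66 (1.14%). The sample 5 signal lay at the 29.5th percentile of its array, little above the floor, so how far it was below the others is uncertain. Each control ratio of sample 5 given above lay between those of other samples. The summed signal of the B cell markers was 606 there and ran from 398 to 770 over all samples, with Cd79b highest in sample 5, at 233, and Igll1 lowest, at 30.9. Their part in the low Tcf3 signal was not tested.

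**Figure D2:**
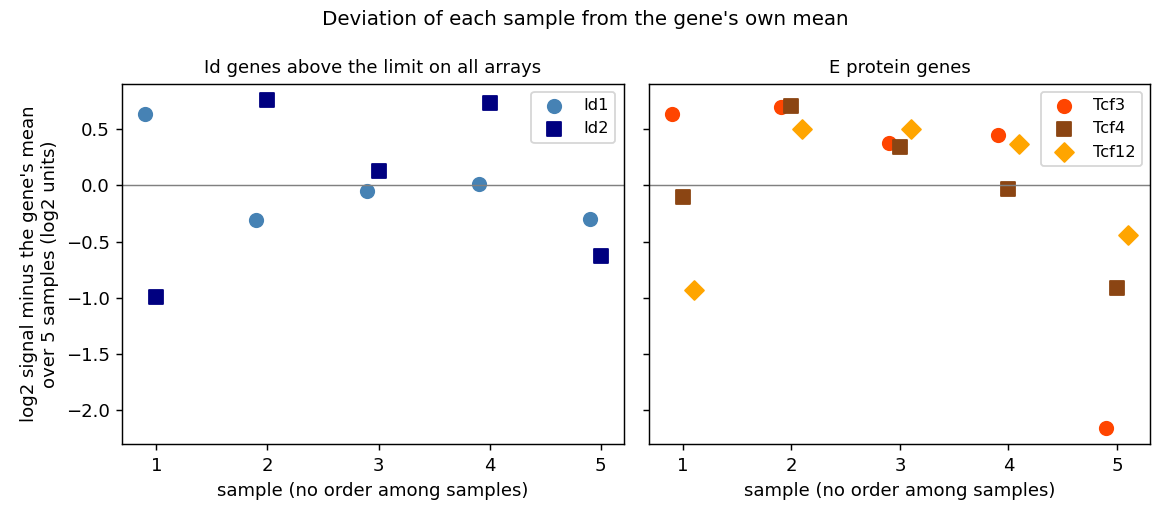
Log2 signal of each sample minus the gene's own mean over 5 samples, for Id1 and Id2 on the left and the 3 E protein genes on the right. Id2 and Tcf12 are both lowest in samples 1 and 5, Id1 is highest in sample 1, and Tcf3 lies at -2.16 in sample 5.

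The spread between samples was tested by setting each probe set's variance against a scaled F distribution fitted with limma across all 5814 probe sets past the filter. Of the 5 members tested, 0 passed at an adjusted p of 0.05, with 0.0% of all probe sets called. At an unadjusted p under 0.05 there was 1 member, Tcf3, against 290 probe sets (4.99%), and with limma's non-robust prior 0 members and 0 probe sets passed, with 294 (5.06%) unadjusted. Tcf3 had an unadjusted p of 0.0398 and a limma adjusted p of 0.925. The limma adjusted p was 0.937 for Id2, 0.943 for Tcf12, and 0.995 each for Id1 and Tcf4. Without the filter all 7 members were tested and 0 passed, with a limma adjusted p of 0.992 for both Id3 and Id4, where 502 of 12422 probe sets (4.04%) had an unadjusted p under 0.05. The F distribution comes from the same variances, so the test cannot show that a gene was steady.

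**Figure D3:**
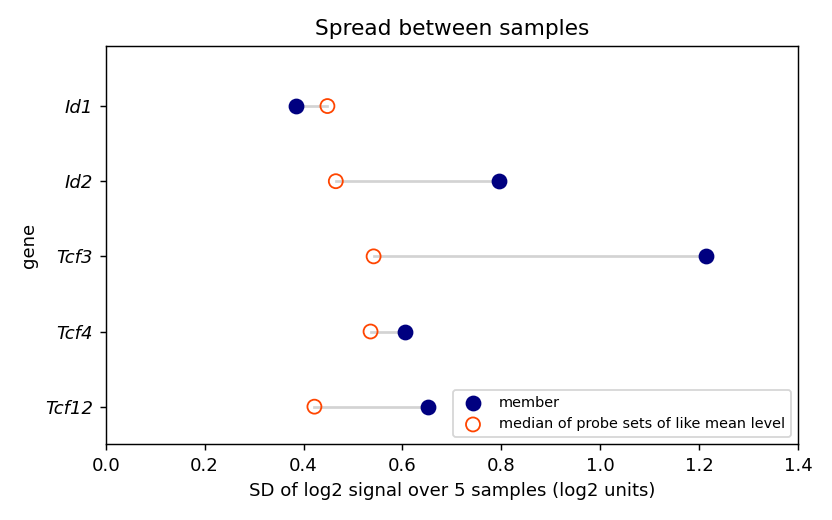
SD of log2 signal over 5 samples (x axis, log2 units) for the 5 members past the filter (filled), beside the median SD of probe sets within 0.5 log2 units of the same mean level (open). Tcf3 has an SD of 1.21 against 0.54, Id2 0.80 against 0.47, Tcf12 0.65 against 0.42, Tcf4 0.61 against 0.54 and Id1 0.39 against 0.45.

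The balance of inhibitor and E protein was read from the ratio of the Id2 signal to each E protein gene on the same array, which does not depend on the array's scaling factor. Array effects that differ with signal level do not cancel in it. In sample 1, the median deviation of probe sets of like level was -0.19 for Id2. It was 0.04 for Tcf3, 0.03 for Tcf4 and -0.05 for Tcf12. In sample 4 it was 0.30 for Id2, 0.13 for both Tcf3 and Tcf4, and 0.19 for Tcf12. In sample 5 it was -0.22 for Id2, 0.01 for both Tcf3 and Tcf4, and -0.12 for Tcf12. Only the change of each ratio between samples is given, centred on the mean over samples. The ratio of Id2 to Tcf12 was the steadiest of the 3. Its centred log2 values were -0.06, 0.26, -0.37, 0.37 and -0.19 in samples 1 to 5, a range of 0.74 with an SD of 0.31. Samples 2 and 4 thus lay above the mean and the others below it, with a 1.67-fold difference between the extremes, against 3.38-fold for Id2 alone. Of 5813 other probe sets past the filter, 3.51% had a smaller SD of their ratio to Id2, and the median SD was 0.83.

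The ratio of Id2 to Tcf4 had centred log2 values of -0.89, 0.05, -0.21, 0.77 and 0.28 in samples 1 to 5, an SD of 0.62. It was lowest in sample 1 and highest in sample 4, a 3.18-fold difference. The ratio of Id2 to Tcf3 had values of -1.63, 0.06, -0.25, 0.29 and 1.53, an SD of 1.13. It was lowest in sample 1, where Id2 was low, and highest in sample 5, where Tcf3 lay under the array median. With Tcf3 in sample 5 raised to that median, a step chosen after the data were seen, the ratio in sample 5 was at least 3.17-fold that in sample 1, and sample 4 was then the highest, at 3.79-fold. Without sample 1 the log2 range of the ratio to Tcf3 was 1.78 in place of 3.16 and that to Tcf4 0.99 in place of 1.67, and without sample 5 the range for Tcf3 was 1.92. Sample 1 was lowest in the ratios to Tcf3 and Tcf4 but not in that to Tcf12, where sample 3 was lowest. Which sample had the lowest ratio thus differed with the E protein gene chosen.

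**Figure D4:**
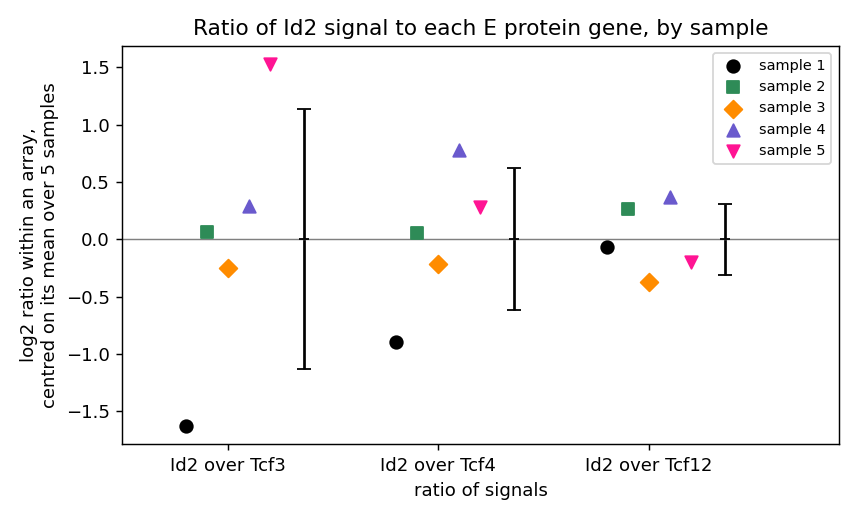
Log2 ratio of Id2 signal to Tcf3, Tcf4 and Tcf12 signal on the same array, centred on its mean over 5 samples, with 1 point per sample and a bar of 1 SD to each side of 0 at the right of each group. The points span 3.16 log2 units for Tcf3, whose signal in sample 5 lay under the array median, 1.67 for Tcf4 and 0.74 for Tcf12.

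For 4 members the named genes of most similar profile were sought among 4556 other genes past the filter, as the smallest root mean square difference of centred log2 signal over 5 samples. Members qualified where their SD exceeded the median SD of 0.47. For Id2 these were Cast, the calpain inhibitor calpastatin, at 0.06, Pcnp at 0.09 and the zinc finger factor gene Rreb1 at 0.10. Cast had signals of 139, 432, 312, 447 and 169 in samples 1 to 5, again low in samples 1 and 5. For Tcf12 they were the proteasome subunit gene Psma3 at 0.05, Znrf2 at 0.06 and Mapre1, which encodes a microtubule end-binding protein, at 0.07. For Tcf4 they were Rnf138 at 0.09, Ccar1 at 0.09 and the translation factor gene Eif1a at 0.10. For Tcf3 they were Csf3, the gene of G-CSF, at 0.12, Art5 at 0.14 and Cops4, a COP9 signalosome subunit, at 0.18, all low in sample 5. Csf3 and Art5 both had 23.2 there and were raised to the floor of 30.0. Their closeness to Tcf3 in sample 5 thus rests on the floor. Tcf12 stood 162nd among the genes nearest to Id2, and Id2 stood 283rd among those nearest to Tcf12. These genes depended on single samples: of the 12 named, between 2 and 6 were found again when 1 sample was left out. No correlation was computed, as 5 samples are under the 6 it would need.

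The genes around this axis were taken from 8 lists with 86 measured genes, of which 19 (22.1%) were above the limit on all 5 arrays, against 44.5% of named genes. Of the 86 genes, 37 passed the filter on mean signal and were tested for variance. With limma, 0 of them passed at an adjusted p of 0.05, as did 0.0% of all 5814 probe sets tested. The 17 tissue-restricted partners, which form DNA-binding dimers with E proteins, had 1 gene above the limit on every array, Lyl1, a factor of early blood cells. Lyl1 had 4169, 10486, 5981, 6996 and 5567 in samples 1 to 5. Its relative Tal1 had 137 ± 64.0 (SD, n = 5) and was above the limit on 4 arrays, and Tal2 had 28.6 ± 21.4.

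E protein cofactors had 4 of 8 genes above the limit on all 5 arrays. They were the acetyltransferase genes Crebbp at 499 ± 206 and Kat2b at 371 ± 129, the corepressor gene Cbfa2t3 at 253 ± 109, and Lmo2, a bridging factor of blood progenitors, at 724 ± 212 (SD, n = 5). The list of E protein targets of early lymphoid cells had 0 of 10 measured genes above the limit throughout. Ebf1, a B cell factor, had 41.4 ± 42.3, Pax5 77.0 ± 56.3 and Igll1, a surrogate light chain, 93.5 ± 43.3. Of the 9 measured plasmacytoid genes, 0 were above it on every array, with Spib at 95.7 ± 104 and Ly6d at 39.2 ± 22.8. The list was not low throughout, since 3 of the 9 passed the filter on mean signal. Cox6a2, high in sample 2, had 303 ± 546.

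Conventional dendritic cell factors had 6 of 13 genes above the limit on all 5 arrays, among them Spi1, which encodes PU.1, at 910 ± 386, Gfi1, a repressor of myeloid cells, at 832 ± 327, and Klf4 at 636 ± 410. Irf8, needed for a conventional subset, exceeded its array's median on 4 arrays, with a signal of 82.6 in sample 1 and 208 to 368 elsewhere, and Batf3 on 1 array at 110 ± 55.3. Irf4 was under the floor on all 5 arrays.

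Of the BMP and TGF-beta signalling genes, 4 of 13 were above the limit on all 5 arrays. Smad4, the shared signal transducer, had signals of 275, 1124, 744, 1109 and 512 in samples 1 to 5, with samples 2 and 4 high and samples 1 and 5 low. Samples 1 and 5 were also the lowest, in either order, for 26.4% of the 4556 named genes other than Id2 past the filter. The ligand gene Tgfb1 had 1042, 390, 250, 293 and 1263, high in samples 1 and 5. Smad2, at 480 ± 79.1, had 517, 433, 530, 556 and 365 in samples 1 to 5. The inhibitory Smad7, at 152 ± 31.9, had 178, 127, 156, 186 and 112. Both were low in samples 2 and 5, whereas Id2 was highest in sample 2. The part of these genes in the level of Id2 was not tested. The receptor genes Tgfbr1, at 49.3 ± 31.7, and Tgfbr2, at 46.1 ± 22.2, were above the limit on 0 arrays.

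Of the other proteins that Id proteins bind, 1 of 9 genes was above the limit on all 5 arrays, the retinoblastoma relative Rbl1 at 582 ± 164, while Rb1 was above it on 4 at 231 ± 117. Cyclin-dependent kinase inhibitors, some of which E proteins activate, had 3 of 7 genes there: Cdkn2d at 693 ± 149, Cdkn1a at 311 ± 90.2 and Cdkn2c at 301 ± 41.0 (SD, n = 5).

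**Figure D5:**
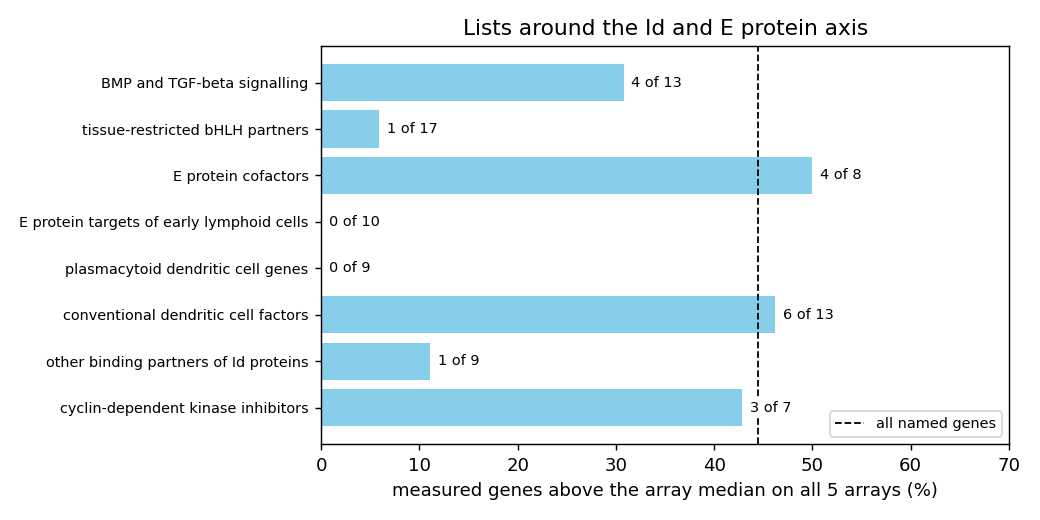
Percentage of measured genes above the array median on all 5 arrays for 8 lists, with the count beside each bar, and a dashed line at 44.5% for all named genes. Cofactors lie at 50% and conventional dendritic cell factors at 46.2%, and the lymphoid target and plasmacytoid lists are at 0.

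The order of samples by Id2 signal was 2, 4, 3, 5 and 1, high to low. Of 37 list genes past the filter, 5 (13.5%) had the same order, namely Smad4, Lyl1, Kat2b, Irf8 and Klf4, against 179 of the 4556 other named genes past it (3.93%). Samples 1 and 5 were the lowest samples, in either order, for 26.4% of those 4556 genes. This count was chosen after the values were seen, and the genes share array and level effects.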

How the data were processed

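Total RNA of 5 mouse progenitor samples was measured on 1-colour probe-set arrays, 1 per sample. The authors deposited linear intensity values for 12488 probe sets; the software, scaling and detection calls are not given in the sources used here, and per the labels RNA work followed an earlier publication. No columns were identical. The number of arrays limits the precision.

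The 66 control probe sets were left out. Each array was scaled by 1 factor to a common median of 103.4, and log2 was taken with a floor at the overall 25th percentile, 30.0. Quoted signals lack this floor. Genes were named from the platform annotation: 10833 probe sets had 1 symbol, 396 several and 1193 none listed. A gene with several probe sets was represented by that with the highest mean log2 signal, which gave 8251 named genes.

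Variances were tested with limma 3.58.1 in R 4.3.3 (squeezeVar, trend on mean signal, robust prior), with Benjamini-Hochberg adjustment over probe sets with a mean above the common median. The procedure was also run on simulated independent normal values. These lacked effects shared by the probe sets of an array, so that run cannot say how the test behaves under such effects. Levels, ratios, lists and similar profiles were described with no test. Named genes were the 7 members, Flt3, Itgam, of each list the first 3 measured genes and up to 4 with the highest signal above the limit on all 5 arrays, and 3 similar genes per member. Members, lists and tests were chosen with earlier results of these data known. Alternatives were other scalings, floors, filters and limits, and leaving out each sample.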

Additional observations from a re-analysis of the deposited data

Results flagged for a closer look

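Tcf3 had a Dixon ratio of 0.887 on the log2 scale, since sample 5, at 36.8, lay far under the other samples at 214 to 267. The ratio was 0.848 with arrays scaled to a common trimmed mean and 0.895 after quantile normalization. Fscn1, an actin-bundling gene of the mature dendritic cell markers, had a ratio of 0.78, with 215 in sample 4 and 355 to 408 in the others. Not every list gene with an outlying sample is given here. Chance flags about 1 in 20 groups, and 6.04% of probe sets past the filter on mean signal had such a sample.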

How the results depend on the processing

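The count of members above the array median on every array was 3 in the values as deposited, after scaling to a common trimmed mean and after quantile normalization, all of which keep ranks within an array. A limit at the 40th percentile gave 4 and one at the 75th 2, with 5 where at least 3 arrays sufficed, against 51.1%, 21.7% and 57.3% of named genes. Leaving out 1 sample gave 3 to 5. The list genes above the limit were 19, against 8 at the 75th percentile and 40 with at least 3 arrays, and 19 to 23 with 1 sample left out. Members past limma's variance test were 0 under all 11 alternatives run, with a limma adjusted p of 0.816 to 1. The log2 range of the Id2 ratio was 1.78 to 3.16 for Tcf3, 0.99 to 1.67 for Tcf4 and 0.56 to 0.74 for Tcf12 with 1 sample left out, and 1.92 for Tcf3 with signals under the array median raised to it, an alternative chosen after the data were seen. After quantile normalization this range was 3.19 for Tcf3, 1.28 for Tcf4 and 0.68 for Tcf12. Of the 12 most similar genes, 7 were found again after quantile normalization and 2 to 6 with 1 sample left out. Scaling to a trimmed mean set array medians up to 0.29 log2 units apart. Id2 was highest in sample 2 and lowest in sample 1 under both of the other scalings. In the values as deposited, where sample 1 is on a larger scale, Id2 was highest in sample 1, at 6734, and lowest in sample 5, at 1798. Tcf3 was lowest in sample 5 in all of these. The mean log2 signal of each member moved by less than its SD under every alternative run. No paired analysis was possible because there is 1 group.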
